A study of Mus musculus with 2 samples.

Results

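Of 4687 mouse transcripts annotated as targets of nonsense-mediated decay in the transcript tables, 713 were at 1 TPM or more in both libraries of differentiating G1E-ER4 erythroid cells. TPM is a length-corrected abundance scaled to the same sum in each library. They were taken by that rule alone, the GENCODE transcript type nonsense_mediated_decay and the TPM minimum, and are called decay transcripts below. The tables hold 103639 Ensembl transcripts in all. The members made up 15.2% of the annotated decay transcripts, and 14% of all Ensembl transcripts passed the same minimum. They came from 636 genes. Because TPM chose the members, their levels are a description and carry no test.

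G1E-ER4 is an immortalized mouse erythroid line derived from GATA1-null G1E cells, in which a fusion of GATA1 to the estrogen receptor ligand-binding domain restores GATA1 function when estradiol is added. The study measured polyA mRNA by paired-end RNA sequencing in 2 libraries, both from cells given 10 nM 17beta-estradiol for 14 h. They are biological replicates 1 and 2 of 1 group and share 1 biosample record. No untreated or other control library was analysed here, so nothing below is an effect of estradiol or of GATA1. With 2 libraries, both values are given in place of a mean and SD unless stated, and the difference between them may be biological or technical.

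The expected counts added up to 38395481 for replicate 1 and 60097379 for replicate 2. All 16 erythroid markers examined were at 1 TPM or more in both libraries, with a summed level of 38914 TPM in replicate 1 and 88577 TPM in replicate 2. Globins led this sum: Hbb-bs was at 13158 and 49652 TPM and Hba-a1 at 7118 and 21029 TPM. Klf1, Zfpm1, Tal1, Nfe2, Hba-a2 and Ank1 were lower in replicate 2, and the other erythroid markers were higher. The latter include Gata1, at 1132 and 2656 TPM. Whether its reads came from the introduced GATA1 fusion was not tested. None of 9 markers of other blood cells reached the minimum, with sums of 0.45 and 0.61 TPM, and none of 4 markers of tissues outside blood did, with sums of 0.04 and 0.02 TPM. Elane and Itgam, which mark neutrophils and myeloid cells, were at 0 in both.

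Nonsense-mediated decay is the cytoplasmic pathway that degrades mRNA on which a ribosome stops well upstream of an exon junction. The protein complex left at that junction after splicing recruits the factor UPF1, and the mRNA is then cut or stripped of its cap and tail. Many RNA-binding proteins use the pathway to limit their own level: the protein promotes inclusion of an exon, or splicing of an intron, that brings an early stop codon into its own mRNA. The annotation assigns the decay type from the place of the stop codon in the model and not from a measured half-life, so a decay transcript here is a predicted target.

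To show what the annotation marks, the bases up to the stop codon of 8 decay transcripts are given, chosen from the most abundant members and from genes of splicing control and iron transport. Each line is in mRNA sense, 5′ to 3′, from GENCODE M21 transcript sequences on GRCm38, and the capitals mark the stop codon.
Ddx5-205: cctgatttggcaaggcgcaccgcaatgTGA
Fkbp8-210: ttgggacctacgagaagaagggagcagTAA
Cct4-205: ttactgacatgtctcgacctgtgcaacTGA
Hnrnpd-205: gggtcatggatcagaaagaacataaatTGA
Kmt5c-212: tgccctcagatgggaatactgcctgtgTGA
Hnrnpdl-205: attctccgcgtgcccgctggaccccagTAG
Rbm39-219: cgtagcaaaaaagctcaaagtgcttcaTAA
Slc25a37-204: cggcaaacagagaactctagggtcacgTGA

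The Ddx5-205 stop codon lies at chr11:106782679-106782681 on the minus strand, and the last exon junction of that mRNA follows 210 bases later. In Fkbp8-210 the stop lies at chr8:70534418-70534420 on the plus strand, with 194 bases to the last junction. The Cct4-205 stop, at chr11:22996405-22996407 on the plus strand, is 50 bases before the last junction. These 3 mRNAs each have only 1 junction after the stop.
The Hnrnpd-205 stop is at chr5:99966156-99966158 on the minus strand, 513 bases before the last junction, and that of Hnrnpdl-205 at chr5:100038593-100038595 on the minus strand, 860 bases before it. The Kmt5c-212 stop is at chr7:4745833-4745835 on the plus strand, 288 bases before the last junction. The Rbm39-219 stop is at chr2:156176439-156176441 on the minus strand, 108 bases before the last junction, and the Slc25a37-204 stop at chr14:69249284-69249286 on the minus strand, 458 bases before it. Against the coding transcripts of the same gene, the stops of Ddx5-205, Cct4-205, Hnrnpd-205 and Kmt5c-212 fall within coding exons, and the other 4 fall within introns.

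For 2 of these, the splice junction that no other annotated transcript of the gene has is shown as the 15 bases on each side of it, because the decay transcript differs there from all the others. Hnrnpd-205 also has 232 bases of its own, and Kmt5c-212 has none. The capitals mark the downstream exon.
Hnrnpd-205 junction: cgaggaggatgaaggGTCATGGATCAGAAA
Kmt5c-212 junction: taagatgaatgtcagATTTTCTGCTACCTC
The Hnrnpd-205 stop codon ends 28 bases after this junction. In Kmt5c-212 the stop ends 328 bases after the junction.

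Decay transcripts took up 3.03% of the TPM of all Ensembl transcripts in replicate 1 and 1.93% in replicate 2, a mean of 2.48% ± 0.775 (SD, n = 2). The 713 members held 94.5% and 92.3% of that decay TPM, so the decay transcripts under the minimum added little. Protein-coding transcripts took 65.6% and 66.4% of TPM, and retained-intron transcripts 11.4% and 17.6%. Among members, 377 reached 5 TPM in both libraries, 60 reached 50 TPM, 27 reached 100 TPM and 2 reached 500 TPM. The 15 members of highest mean TPM held 41.0% of the members' summed TPM in replicate 1 and 28.2% in replicate 2.

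**Figure D1:**
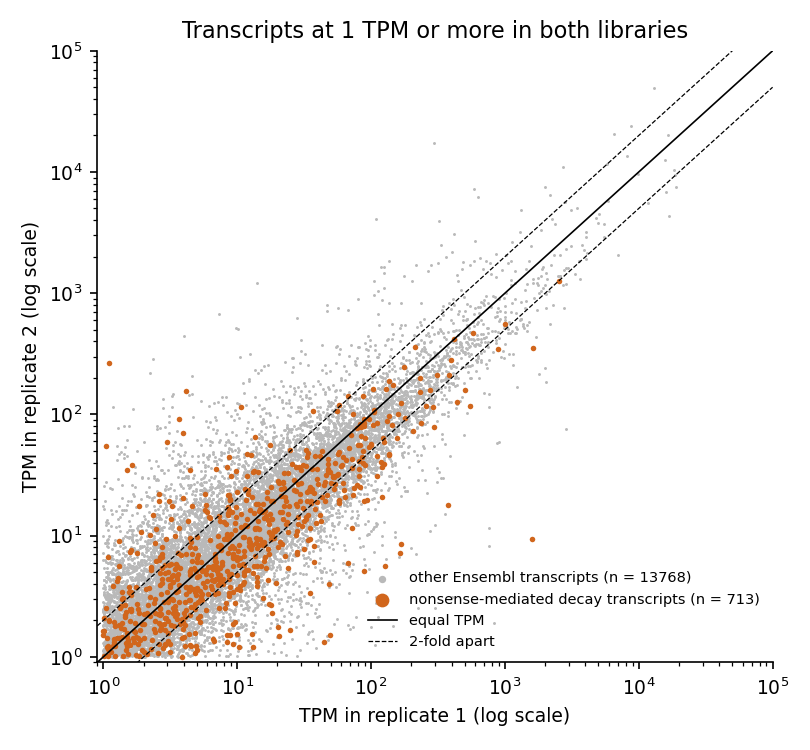
TPM in replicate 1 against replicate 2, both on log scales, for the 713 decay transcripts (orange) and the other 13768 Ensembl transcripts at 1 TPM or more in both libraries (grey); the solid line marks equal TPM and the dashed lines a 2-fold difference. The decay transcripts lie mostly under 100 TPM, within the cloud of the others, and Kmt5c-212, at 1602 and 9.43 TPM, lies far below the lower dashed line.

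At the minimum itself, Hspa12b-203 (1.00 and 1.63 TPM), Josd2-213 (1.00 and 1.51 TPM) and Txnrd2-202 (3.89 and 1.00 TPM) were the 3 members just inside. Spn-202 (1.64 and 0.98 TPM), Tedc2-202 (0.98 and 1.88 TPM) and Exog-202 (0.99 and 1.15 TPM) were just outside. Of all annotated decay transcripts, 2374 were at 0 TPM in both libraries.

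Ddx5-205, a transcript of 879 bases from the gene for an RNA helicase that acts in splicing and transcription, stood at 2553 TPM in replicate 1 and 1250 TPM in replicate 2. It was the highest member in both libraries and held 77.7% and 93.5% of its gene's TPM, while the coding transcripts of Ddx5 summed to 179 and 86.8 TPM, of which the full-length Ddx5-201 made up 3.82 and 3.99 TPM. Hnrnpu-206, of 2844 bases, comes from the gene for a nuclear scaffold protein that binds RNA and chromatin, and stood at 999 and 554 TPM. These were the 2 members above 500 TPM in both libraries.

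Fkbp8-210, of 496 bases, is from the gene for a mitochondrial chaperone of the FKBP family, and was at 1635 TPM in replicate 1 and 356 TPM in replicate 2. Its share of the gene's TPM was 63.0% and 31.3%, and the coding transcripts of Fkbp8 summed to 888 and 747 TPM, closer together than the decay transcript. Cct4-205, from the gene for a subunit of the chaperonin that folds actin and tubulin, was at 892 and 347 TPM. A second member from that gene, Cct4-203, was at 230 and 202 TPM, and the coding transcripts of Cct4 together reached only 6.86 and 5.03 TPM.

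Papola-205, of 529 bases, is from the gene for the poly(A) polymerase that adds mRNA tails. It was at 579 and 466 TPM and held 93.5% and 93.2% of the gene's TPM, a close pair among the abundant members. Atp5a1-204, from the gene for the alpha subunit of mitochondrial ATP synthase, was closer still in TPM, at 414 and 421. Its share nonetheless differed, 87.9% and 68.8%, and the coding transcripts of the gene were at 37.2 TPM in replicate 1 and 191 TPM in replicate 2. Ywhae-203, from the gene for the 14-3-3 epsilon adaptor protein, was the only one of the 15 clearly higher in replicate 2, at 212 and 357 TPM.

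Cnot3-204, of 1828 bases, from the gene for a subunit of the deadenylase complex that shortens mRNA tails, was at 397 and 283 TPM. Ccne1-202, from the gene for cyclin E1, which drives entry into S phase, was at 505 and 160 TPM and held 78.4% and 74.5% of its gene. Cenpa-202, from the gene for the centromeric histone H3 variant, was at 383 and 212 TPM. The deposited lengths of these 3 differ from those of the M21 models, so no stop position is given for them. The remaining 4 were Hnrnpd-205 (546 and 118 TPM), Cmas-202 (440 and 126 TPM), Rab4b-208 (310 and 211 TPM) and Sf1-201 (277 and 158 TPM). Cmas encodes the enzyme that activates sialic acid, Rab4b a GTPase of endosome recycling, and Sf1 the protein that binds the intron branch point.

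**Figure D2:**
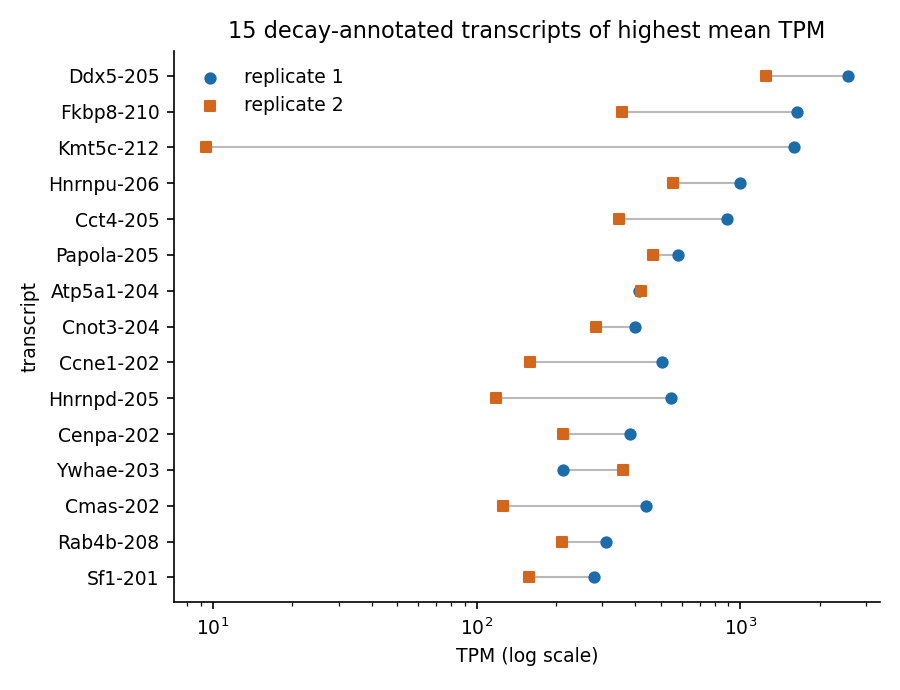
TPM of the 15 decay transcripts of highest mean TPM, on a log scale, in replicate 1 (circles) and replicate 2 (squares), with a line joining the 2 values. 13 of the 15 are higher in replicate 1, Atp5a1-204 is nearly level, and Kmt5c-212 has the widest gap.

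Kmt5c-212 was abundant in 1 library only. This transcript of 1270 bases comes from the gene for a methyltransferase that places H4K20 trimethylation on heterochromatin. It was at 1602 TPM in replicate 1, with 54771 expected counts, and at 9.43 TPM in replicate 2, with 572. The coding transcripts of Kmt5c summed to 1096 and 1134 TPM, so the gene's coding level was nearly the same in both libraries. Its isoform percent was 51.1% in replicate 1 and 0.65% in replicate 2.

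Isoform percent is the part of a gene's TPM that 1 transcript holds, as deposited. Because TPM divides by length, it is not a share of reads. Of expected counts, Fkbp8-210 held 28.6% and 9.30% of its gene, and Atp5a1-204 71.6% and 36.9%. Ddx5-205 held 84.9% and 92.5%, and Sf1-201, of 3221 bases, 26.7% and 27.6% against 7.53% and 9.92% of TPM. The median isoform percent over members was 30.8% in replicate 1 and 26.8% in replicate 2. Protein-coding transcripts at 1 TPM or more had medians of 63.3% and 61.9%, and retained-intron transcripts 18% and 16.1%, so decay transcripts lay between these types. A member held at least 50% of its gene's TPM in both libraries in 188 of 713 cases (26.4%), beside 43.7% of all transcripts at 1 TPM or more, 49.8% of coding ones and 18.8% of retained-intron ones. At the ends, 43 members held 90% or more in both libraries and 144 held under 10% in both. Together the members held 27% and 20.6% of the TPM of their host genes.

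**Figure D3:**
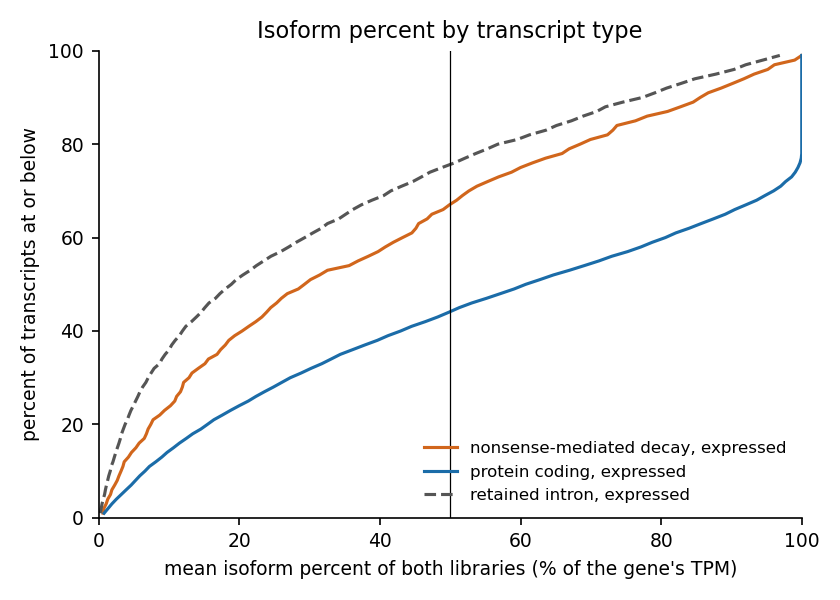
Percent of transcripts (vertical axis) at or below each mean isoform percent (horizontal axis, percent of the gene's TPM, mean of both libraries) for expressed decay transcripts (orange), protein-coding transcripts (blue) and retained-intron transcripts (grey, dashed); the upright line marks 50%. The curve of the decay transcripts lies between the other 2, and the top of the coding curve sits at 100%, where a transcript holds all of its gene's TPM.

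Beside 557 of the 713 members, at least 1 coding transcript of the same gene was itself at 1 TPM or more in both libraries. In 157 of these 557, the decay transcript nevertheless exceeded the summed coding TPM in both. The 10 members of highest isoform percent in that company included Hnrnpu-206 and Papola-205. Hnrnpu-206 was listed at 99.97% and 99.98%, but the deposited table places the coding Hnrnpu-201 under another gene identifier; grouped by the M21 gene, its share was 92.2% and 95.6%.

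Arih1-201, from the gene for an ariadne-family ubiquitin ligase, held 97.3% and 95.2% of its gene's TPM at 137 and 47.6 TPM. Tram1-203, from the gene for a protein of the endoplasmic reticulum translocation channel, held 96.4% and 94.7% at 180 and 94.2 TPM. Cop1-213, from the gene for a ubiquitin ligase that acts on transcription factors, held 96.5% and 93.8% at 156 and 63.3 TPM. All 3 had coding relatives at only a few TPM: the coding transcripts of Arih1 summed to 3.83 and 2.38 TPM, those of Tram1 to 6.70 and 5.27 TPM, and those of Cop1 to 4.88 and 3.88 TPM.

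The other 5 were Thap12-202 (97.5% and 92.8%), Kpna1-209 (95.4% and 94.5%), 3110040N11Rik-204 (94.6% and 94.7%), Ufc1-204 (95.2% and 90.8%) and Rtca-204 (95.3% and 90.2%). Kpna1 encodes an importin alpha that carries proteins into the nucleus, Ufc1 the conjugating enzyme of the ubiquitin-like UFM1 pathway, and Rtca an RNA cyclase. Ufc1-204 differed from the other 4 in direction, at 24.9 TPM in replicate 1 and 51.4 TPM in replicate 2.

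Isoform percent of a member differed between the libraries by a median of 6.88 points, and by 20 points or more in 144 members. These 2 figures were not computed over other transcripts, so they cannot be called particular to decay transcripts. Across the 713 members, isoform percent in the 2 libraries correlated with Pearson r = 0.86, with points that share genes and annotation. For log2 TPM, r was 0.78 over members, 0.88 over coding transcripts and 0.79 over retained-intron transcripts. 11 of the members, such as Mrpl32-201, were alone in their deposited gene, which fixes their isoform percent at 100%.

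Members had a median deposited length of 1328 bases, with quartiles of 737 and 2424. Decay transcripts of expressed genes that stayed under the minimum had a median of 1005 bases, coding transcripts 2250 and retained-intron transcripts 808. The shortest member was Cmpk1-202, at 262 bases, from the gene for a pyrimidine nucleotide kinase (2.02 and 1.09 TPM). Rif1-205 (307 bases), Naa20-208 (331), Morf4l1-209 (335) and Ndufa3-204 (343) followed. Of these, Rif1-205 held most of its gene's TPM, 95.1% and 88.9%, at 24.1 and 10.8 TPM. It held only 36.1% and 15.2% of the gene's expected counts, because TPM divides by length. Rif1 encodes a regulator of replication timing and DNA repair.

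The longest was Gm38394-202, at 10156 bases. It was listed at 4.42 and 2.20 TPM and exactly 50% in both libraries, and a coding model of the gene has the same sequence and the same TPM, so reads cannot assign it. Only 1 other member, Nipsnap2-202, has a transcript of identical sequence. Ankrd11-203 (8481 bases), Ank1-210 (8366), Ankhd1-201 (8200) and Ankfy1-202 (7154) were next. Ank1 encodes erythroid ankyrin, which ties the red cell membrane to its spectrin skeleton. Ank1-210 was at 7.86 and 4.02 TPM, 2.30% and 1.24% of the gene, beside coding transcripts at 332 and 313 TPM.

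Length and isoform percent were nearly unrelated across the 713 members, with Spearman rho = -0.02, while length and TPM gave rho = -0.23. Both relations are across transcripts that share the 2 libraries, and TPM divides by length. The members under 700 bases numbered 145, and 42.1% of them were at least 2-fold apart between the libraries; of the 235 members of 2000 bases or more, 26.4% were. Median expected counts in the short band were 129 and 171, and in the long band 625 and 962, so the shorter members also rested on fewer reads. The 2-fold shares were not set beside other transcripts of the same lengths.

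The annotated stop codon lay more than 50 bases before the last exon junction in 707 of 713 members (99.2%, exact 95% binomial interval 98.2% to 99.7%, for counting error only). This distance is what the annotation uses to assign the type, so it is a check of the models and not a finding. The 6 at 50 bases or fewer were Cct4-205, Cyb5a-201, Zcchc7-204, Ubl5-205, Wdr44-205 and Cmpk1-202, named after their values were seen. The median distance was 313 bases and the longest, 7549 bases, was in Ankrd11-203. Among coding transcripts with an annotated stop, 41 of 8986 (0.456%) had it more than 50 bases before the last junction. In 154 members only 1 junction followed the stop.

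**Figure D4:**
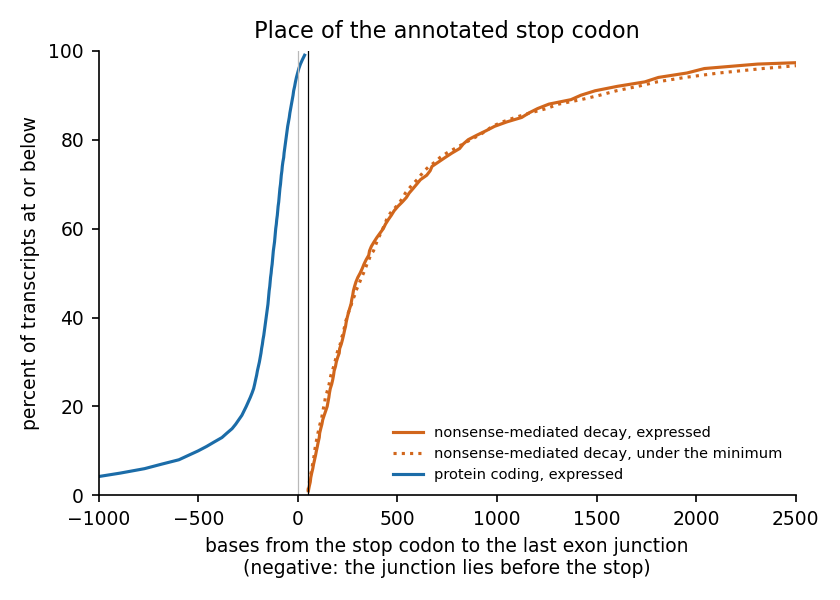
Percent of transcripts (vertical axis) at or below each distance in bases from the stop codon to the last exon junction (horizontal axis, negative where the junction lies before the stop) for expressed decay transcripts (solid orange), decay transcripts of expressed genes under the minimum (dotted orange) and expressed coding transcripts (blue); the black line marks 50 bases. Both decay curves start near 50 bases and run nearly on top of each other, with medians of 313 and 330, while the coding median is at -134.

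Members carried a median coding sequence of 309 bases, against 1122 in coding transcripts. In 436 members (61.2%) the stop codon fell within a coding exon of a coding transcript of the gene, and in 197 (27.6%) within an intron. The intronic stops lay in an exon that no coding transcript has in 100 members, in a lengthened exon in 87 and in a wholly kept intron in 10. A further 43 members ended at the same stop codon as a coding transcript with at least 1 junction after it, and 14 ended in an untranslated exon part. Of decay transcripts under the minimum, 58.1% had the stop in a coding exon and 32.3% in an intron. Stops in an exon that no coding transcript has were 14.0% of members and 21.3% of those under the minimum, and genes with no coding transcript accounted for 1.96% and 0.27%.

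Among stop codons, TGA was used by 439 members (61.6%), TAA by 148 and TAG by 126. TGA made up 57.5% of stops in decay transcripts under the minimum and 52.5% in coding transcripts. Median GC content was 54.7% in members, 51.1% in decay transcripts under the minimum and 53.2% in coding transcripts. GC content, length and annotation support were not separated in these figures.

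The models themselves were less complete than coding models. The start of the mRNA was marked as not found in 17.7% of members, in 34.5% of decay transcripts under the minimum and in 3.51% of coding transcripts. The best annotation support level, level 1, was given to 36.0% of members and 74.5% of coding transcripts. The 3′ end lay within 100 bases of the furthest 3′ end of the gene's coding transcripts in 188 of 699 members (26.9%). The share was 20.1% in decay transcripts under the minimum, 16.7% in retained-intron transcripts and 71.6% in coding transcripts. The coding share is partly fixed in advance, because that furthest end belongs to a coding transcript. Papola-205 ended 32218 genomic bases before that end, Cct4-205 6684, Cmas-202 5124 and Ddx5-205 1621, so several of the most abundant members are models that stop far inside their gene, although the RNA was selected by its polyA tail. The part of this in their TPM was not tested.

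No base of 435 members, and no splice junction of 122, was free of overlap with another annotated transcript of the gene. In 90 members neither was, so no single base or junction sets their reads apart, although a combination of them may. Named members among the 90 include Cmas-202, Sf1-201, Rtca-204, Mrps11-205, Rpl10a-203, Rbm39-225, Fance-201 and Tmem234-216. The median posterior SD of the 90 was 8.78% and 7.84% of the estimate, against 6.16% and 5.33% in the other 623. The 90 were at least 2-fold apart between libraries in 31.1% of cases and the others in 35.5%, a difference that was not tested. The lower bound of the deposited TPM interval was at least 1 TPM in both libraries for 579 members (81.2%), against 86.3% of all transcripts at 1 TPM or more.

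The 2 libraries differed by at least 2-fold in TPM for 249 members (34.9%), beside 31.3% of all transcripts at 1 TPM or more, 28.4% of coding ones and 38.4% of retained-intron ones. Members at least 2-fold higher in replicate 1 numbered 162 (22.7%), against 16% of all transcripts, and those higher in replicate 2 numbered 87 (12.2%), against 15.3%. On the log2 scale, the median TPM ratio of replicate 2 over replicate 1 was -0.36 for members and -0.12 over all transcripts. With expected counts scaled to library totals, these medians were -0.19 and 0.06, and the members split as 139 (19.5%, all transcripts 12%) higher in replicate 1 and 108 (15.1%, all transcripts 18.7%) higher in replicate 2. Relative to the median TPM ratio of all transcripts, the split was 147 and 100. The summed erythroid markers, given above and led by globins, were higher in replicate 2, though several single markers were lower. Their part in these ratios was not tested. With 1 group there is no further library to say which of the 2 is typical.

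After Kmt5c-212, the members most in excess in replicate 1 were Snrpb-203, Sys1-203, Ppp1r12c-203 and Slc25a38-206. Snrpb-203, from the gene for a core protein of the spliceosomal snRNPs, was at 44.6 TPM in replicate 1 and 1.32 TPM in replicate 2. Sys1-203, from a gene of Golgi trafficking, was at 49.0 and 1.52 TPM. Ppp1r12c-203, from the gene for a regulatory subunit of myosin phosphatase, was at 164 and 7.18 TPM. In Snrpb and Ppp1r12c the coding transcripts were much closer between libraries, at 527 and 384 TPM and at 200 and 172 TPM. In Sys1 and Slc25a38 they went the other way from the member, at 25 and 157 TPM and at 54.2 and 170 TPM.

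The members most in excess in replicate 2 were Rps9-210, Rrp7a-204, Fam168b-207, Rpl10a-203 and Arl4a-204. Rps9-210, from the gene for a protein of the small ribosomal subunit, was at 1.10 TPM in replicate 1 and 265 TPM in replicate 2. The coding transcripts of Rps9 moved in the same direction, 138 and 835 TPM. Fam168b-207 went from 4.14 to 155.8 TPM while the coding transcripts of its gene summed to 285 and 127 TPM. Those complete from start to stop codon were nearly level, at 129 and 126 TPM, so the fall in the sum lay in incomplete models. Rrp7a-204, from a gene of ribosomal RNA processing, was at 1.05 and 54.4 TPM, and Arl4a-204, from the gene for a small GTPase, at 1.64 and 38.6 TPM.

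Among the 10 gene lists, that of splicing control held the most members. Of 64 expressed SR protein and splicing regulator genes, 38 have an annotated decay transcript and 19 of these (50%) had a member, 23 transcripts in all. Over all expressed genes with a decay model the share was 35.0% of 1819 genes. The 23 transcripts had a median isoform percent of 22.4% and 19.5%, below the 30.8% and 26.8% of all members, and 4 (17.4%) held at least 50% in both libraries, beside 26.4% of all members. At least 2-fold apart between the libraries were 9 of the 23 (39.1%), near the 34.9% of all members and the 31.3% of all transcripts at 1 TPM or more.

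The 4 that held most of their gene were Hnrnpu-206, Qk-202, Hnrnpll-203 and Tardbp-228. Not all of these models have a short coding sequence. In M21 its length was 99.1%, 93.5%, 56.0% and 20.3%, in that order, of the longest among the gene's coding transcripts. The deposited length of Qk-202 differs from that of its M21 model. Qk-202, from the gene for the RNA-binding protein quaking, held 99.5% and 98.7% at 30.7 and 12.1 TPM. Hnrnpll-203, from the gene for a regulator of alternative splicing in blood cells, held 90.5% and 89.8% at 124 and 59.2 TPM. Tardbp encodes TDP-43, which limits its own mRNA, and has 2 members: Tardbp-228 held 63.0% and 59.7% at 8.18 and 12.4 TPM, and Tardbp-224 held 22.4% and 27.7% at 2.91 and 5.76 TPM. Its coding transcripts summed to 1.90 and 1.78 TPM, below the decay transcripts in both libraries.

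The hnRNP D family showed decay transcripts beside coding ones, which were well expressed in Hnrnpd and lower in Hnrnpdl. Hnrnpd-205, whose gene encodes AUF1, a protein that binds AU-rich mRNA, held 59.6% and 31.2%, with coding transcripts at 370 and 260 TPM. Hnrnpdl, a related gene, had Hnrnpdl-205 at 83.6 and 79.5 TPM (42.0% and 56.0%) and Hnrnpdl-201 at 47.4 and 35.5 TPM (23.8% and 25%). Hnrnpdl-201 ends at the stop codon of a coding transcript, and its coding sequence is 100% of the longest coding one in length. The coding transcripts of Hnrnpdl were lower than Hnrnpdl-205 in both libraries, at 41.6 and 16.2 TPM.

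Srsf1-204, from the gene for a founding SR protein, was at 46.7 and 21.5 TPM, 12.8% and 7.87% of the gene, beside coding transcripts at 232 and 192 TPM. Son-212, from the gene for a nuclear speckle protein, held 46.5% and 43.8% at 35.5 and 18.5 TPM. Rbm39, which encodes a splicing coactivator, had 3 members: Rbm39-219 at 55.4 and 106 TPM, Rbm39-222 at 7.70 and 5.77 TPM, and Rbm39-225 at 10.3 and 1.20 TPM. Srsf11-206 was at 13.8 and 9.56 TPM (22.6% and 15.1%), Srrm2-204 at 11.8 and 46.8 TPM (16.0% and 25.7%) and Rbm3-208 at 8.37 and 36.6 TPM (26.9% and 19.5%). Srrm2 encodes a scaffold of nuclear speckles and Rbm3 a protein induced by cold.

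From relatives of a yeast U1 snRNP protein came Luc7l3-204 (27.2% and 7.13% of its gene), Luc7l-206 (8.32% and 13.3%) and Luc7l2-209 (8.45% and 4.37%). Tial1-206 held 3.10% and 2.59%. Ptbp1-207, from the gene for polypyrimidine tract binding protein, held 0.23% and 0.76% at 1.62 and 7.60 TPM, and Hnrnpk-203 and Hnrnpl-213 stayed under 1% in both. The 19 listed genes with a decay model and no member included Srsf2, Srsf3, Srsf6 and Tra2b. Their highest decay transcripts were at 0.00 and 0.00 TPM in Srsf2, 0.54 and 0.08 TPM in Srsf3, 2.13 and 0.25 TPM in Srsf6, and 0.04 and 0.12 TPM in Tra2b.

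**Figure D5:**
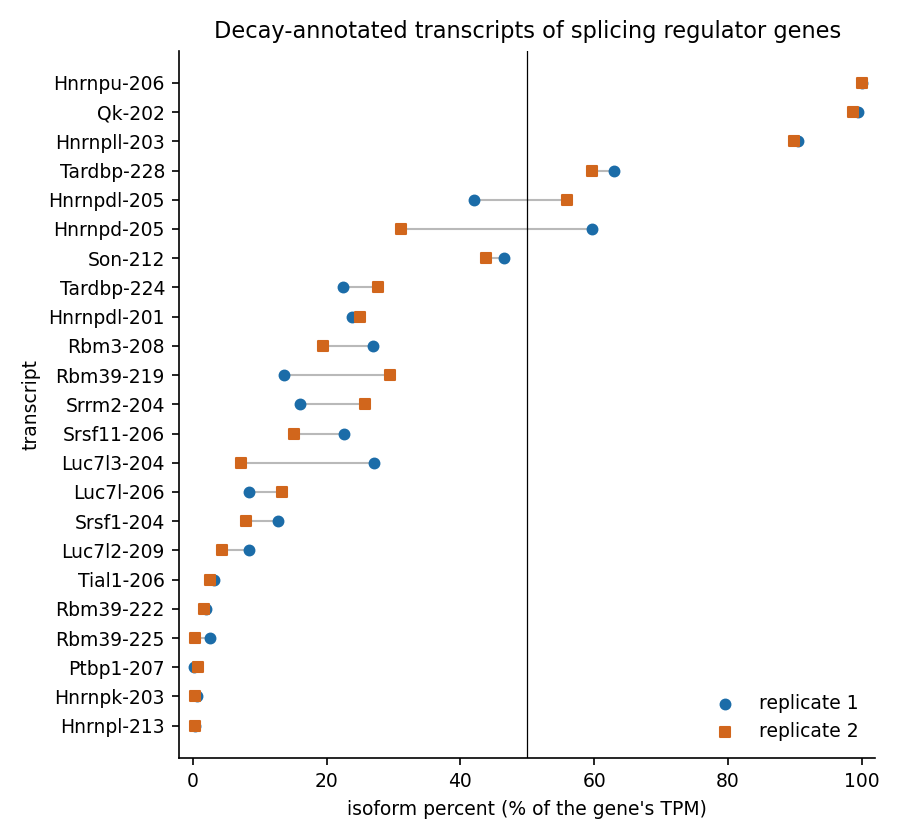
Isoform percent (horizontal axis, percent of the gene's TPM) of the 23 decay transcripts from SR protein and splicing regulator genes in replicate 1 (circles) and replicate 2 (squares), with a line joining the 2 values; the upright line marks 50%. Hnrnpu-206, Qk-202 and Hnrnpll-203 are at about 90% or more in both libraries, and 7 transcripts from Luc7l2-209 down the list to Hnrnpl-213 stay under 10% in both.

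In the spliceosome core list, 9 of 19 genes with a decay model (47.4%) had a member, 10 transcripts. Snrpa1-201, from the gene for a U2 snRNP protein, held 90.3% and 90.5% at 57.9 and 121 TPM, and Prpf38b-204 held 43.6% and 30.1%. Of RNA decay genes, 4 of 13 (30.8%) had a member: Cnot3-204 above, Exosc10-203 (1.85 and 17.7 TPM), Smg6-202 (4.42 and 4.73 TPM) and Edc3-202 (3.04 and 4.40 TPM). Smg6 encodes the endonuclease that cuts decay targets near the stop, and its decay transcript held 8.00% and 10.3% of the gene. The decay transcripts of Smg1 and Smg5, which encode the kinase of UPF1 and a factor that binds phosphorylated UPF1, were at 0.00 TPM and at no more than 0.04 TPM.

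Haem and iron genes had a member in 4 of 11 genes with a decay model (36.4%), 5 transcripts. Slc25a37 encodes mitoferrin-1, which brings iron into the mitochondria of erythroid cells. Slc25a37-204 was at 89.1 and 90.8 TPM, 57.7% and 63.0% of the gene, so its values lay close together in both libraries. The coding transcripts of Slc25a37 summed to 62.6 and 51.4 TPM, of which those complete from start to stop codon made up 6.04 and 17.7 TPM. Slc25a38 encodes the mitochondrial glycine carrier needed for the start of haem synthesis. Slc25a38-206 was at 127.6 TPM in replicate 1 and 5.63 TPM in replicate 2 and Slc25a38-205 at 4.29 and 13.3 TPM, while the coding transcripts were at 54.2 and 170 TPM.

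Iscu-204, from the gene for the scaffold on which iron-sulfur clusters are assembled, was at 7.24 and 4.86 TPM. Of the erythroid regulators, only Tcf12 among 31 expressed genes has an annotated decay transcript. Tcf12 encodes an E protein that pairs with TAL1, and its members Tcf12-204 (9.27 and 1.88 TPM) and Tcf12-220 (2.23 and 10.2 TPM) ran in opposite directions between the libraries. Both were below the summed coding transcripts, at 81.2 and 40.1 TPM. Of that sum, transcripts complete from start to stop codon made up only 0.99 and 3.50 TPM, below Tcf12-220 in both libraries.

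Cytosolic ribosomal protein genes had a member in 6 of 10 genes with a decay model (60.0%), with median isoform percents of 1.94% and 4.23%. Rpl27a-205 was at 175 and 247 TPM but made up 2.60% and 3.76% of its gene, and Rpl12-201 was at 97.1 and 91.1 TPM, 8.22% and 4.69%. Rpl12-201 nevertheless exceeded the summed coding transcripts of Rpl12, at 14.3 and 58.8 TPM. Retained-intron transcripts of that gene summed to 1070 and 1792 TPM. Rpl27a-205 stayed below its coding transcripts, at 1508 and 1829 TPM. Translation factor genes had a member in 6 of 10 genes (60.0%), led by Eif4g1-222 at 101 and 56.9 TPM, 6.25% and 6.97% of the gene for the scaffold of cap-dependent initiation. In neither list did a member hold 50% of its gene in both libraries.

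Genes of the mitochondrial ribosome and respiratory chain had a member in 13 of 29 genes with a decay model (44.8%), 14 transcripts, of which 4 held at least 50% of their gene in both libraries. Beside Atp5a1-204, Mrps11-205 held 89.2% and 79.9% at 88.5 and 84.2 TPM, and Mrpl32-201 was at 10.7 and 116 TPM. Mrps11-205 has no base or junction of its own. Cell cycle and replication genes had a member in 4 of 11 genes (36.4%), with Cdk4-208, from the gene for a G1 cyclin-dependent kinase, at 39.4 and 35.2 TPM and 5.24% and 2.91% of its gene. Proteasome and ubiquitin genes had a member in 2 of 17 genes (11.8%), Uba7-214 (31.3 and 38.1 TPM) and Psmc3ip-204 (10.2 and 7.47 TPM). Neither belongs to the proteasome: Uba7 encodes the enzyme that activates the ubiquitin-like protein ISG15, and Psmc3ip a factor of meiotic recombination. The list shares are counts over few genes, carry no test and do not adjust for how many decay models a gene has.

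Most host genes, 568 of 636, had 1 member, 60 had 2, 7 had 3 and 1 had 4. The gene with 4 was Zdhhc3, which encodes a palmitoyltransferase of the Golgi. Zdhhc3-202 was at 81.3 and 41.3 TPM, Zdhhc3-211 at 4.44 and 34.5 TPM, and Zdhhc3-207 and Zdhhc3-209 under 5 TPM in both, while the coding transcripts summed to 3.09 and 0.77 TPM. Tmem234 had 3 members, of which Tmem234-220 (147 and 175 TPM) and Tmem234-216 (83.3 and 83.9 TPM) were close between libraries and together exceeded the coding transcripts at 26.6 and 28.0 TPM.

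Fbxo28, which encodes an F-box protein of ubiquitin ligases, had Fbxo28-204 at 89.0 and 19.5 TPM, Fbxo28-205 at 88.1 and 5.08 TPM and Fbxo28-202 at 8.61 and 17.3 TPM, with coding transcripts under 1 TPM in both libraries. In Fance, a Fanconi anaemia gene, Fance-201 was at 86.7 and 49.6 TPM, and Fance-208 and Fance-211 were lower. Their deposited lengths of 1581, 507 and 698 bases, in that order, differ from 1942, 1751 and 1197 in the M21 models. In Sys1, Sys1-206 was at 144 and 82.1 TPM and Sys1-204 at 1.18 and 3.81 TPM. Cbarp and Abhd11 each had 3 members, none above 11 TPM in either library.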

How the data were processed

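PolyA mRNA was measured in 2 libraries of 1 group; the sources used here do not name the aligner or the quantifier. Per the labels the build is mm10, and the deposited notes name GENCODE M4. The authors deposited 1 transcript table per library, and, per the file headers, its columns hold expected counts (estimated, not whole), TPM (scaled to 1000000 over the table), FPKM (not used in results) and isoform percent. The deposited posterior SD and interval bounds, a signal unit here, come with no stated confidence level, and a TPM can lie outside its interval.

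Transcript types, exon models and sequences were joined by identifier from GENCODE M21 on GRCm38, since M4 models were not used here, so a type can differ from the one in force at deposition. Of 103639 Ensembl transcripts, 101510 matched; the other 2129 had no type and held 50781 and 32431 TPM. Deposited and M21 lengths were equal in 658 members (92.3%). Among the others, Tial1-206 has 2835 deposited bases and 953 in M21, and Josd2-213 has 613 and 1348. For such members the type and stop come from a model unlike the one quantified. The fold between libraries is the ratio of TPM, with no pseudocount, and the 77 members with under 50 counts in a library are least precise. Depth was 38395481 and 60097379 expected counts. No control or second group exists here, so no test was made. The code for stop positions was tested on simulated transcript models. For folds, only a 2-fold cut on simulated counts was tried, not the TPM ratio used here.

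The members, the 10 lists and the naming rule were chosen with earlier results of these data known. Named were the 15 highest in mean TPM, the 10 highest in isoform percent beside an expressed coding transcript, the 5 largest folds each way with a mean of 5 TPM or more, list members, the 5 longest and shortest, genes with 3 or more members, and 3 transcripts on each side of the minimum. On the lists of splicing regulators, RNA decay, erythroid and haem genes all members count as named, and elsewhere the top 3. A few items these rules select are not reported here. Alternatives were other minimums, posterior means, interval bounds, matching models, scaled counts and leaving out a library. Python 3.11.15, pandas 2.3.3, numpy 2.4.6, scipy 1.17.1 and matplotlib 3.10.9 were used.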

Additional observations from a re-analysis of the deposited data

How the results depend on the processing

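No paired analysis was possible because the 2 libraries form 1 group. The 713 members became 377 at a minimum of 5 TPM. Median isoform percent, 29.3% over the mean of both libraries, was 24.8% at a minimum of 0.5 TPM, 46.8% at 5 TPM and 36.9% where the lower interval bound was at least 1 TPM. The median length of 1328 bases was 1370 at 0.5 TPM, 993 at 5 TPM, 1298 with posterior means, 1299 with the interval bound, 1324 in models of equal length and 1394 in members with a base or junction of their own. Members at least 2-fold apart were 120 at 5 TPM and 424 at a 1.5-fold minimum. All 713 members (100%) had a junction after the stop. Without replicate 1 or 2 in turn, the members numbered 901 to 935, median isoform percent was 21.5% to 29.6%, median length 1308 to 1311, the members with at least 50% of their gene 253 to 293, and the decay share of TPM 1.93% to 3.03%; the higher of the counts with at least 50%, 293, was without replicate 2. Of 57 alternative values, 40 stayed within the bounds and 17 did not. The bounds were 1.5 times a count, 1 SD of the median isoform percent or TPM share, and the binomial interval. For median length only an equal value counted as within, so every alternative length is among the 17, however small its shift. The gene grouping of M21, the relative fold and the members with bases of their own were chosen after seeing the data, as was leaving out a library for length and stop position. Depth limits the 77 members with under 50 counts in a library.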

Other observations

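Decay transcripts of genes with no coding transcript in the annotation numbered 14, named after their values were seen. Of these, 9 held at least 50% of their gene in both libraries, and most carry provisional Gm symbols. Gm38393-202 was the highest, at 82.3 and 55.5 TPM and 98.4% and 92.2% of its gene. Gm20537-202 (29.2 and 21.9 TPM) and Gm20458-201 (18.2 and 10.4 TPM) were listed at 100% in both libraries. Sssca1-206, at 7.47 and 4.16 TPM, held 5.20% and 2.75% of its gene.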
